A study of Homo sapiens with 12 samples.

Results

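The actin cytoskeleton genes described here are 48 genes for actin, non-muscle myosin II and the proteins that bind, cut, cap, crosslink or pull on actin filaments, chosen by symbol from 23583 features in the count table. The list was set with earlier results of these data known. All 48 were detected and passed the filter on low counts, which left 16946 features. They were measured by RNA sequencing in 2 hepatocellular carcinoma (HCC) cell lines, Huh7, which keeps many hepatocyte functions, and HCCLM3, a strongly metastatic line. Cells of each line received an siRNA that targets the circular RNA circASH2 (si-circASH2) or a control siRNA (si-NC), which makes 4 groups of 3 libraries: Huh7 si-circASH2, Huh7 si-NC, HCCLM3 si-circASH2 and HCCLM3 si-NC. Per the labels the study asked how silencing of circASH2 bears on metastasis of HCC. The sources used here give neither the siRNA sequences nor the time after transfection.

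Total counts lay between 29006781 and 30858895 per library, and levels are given as CPM, counts per 1e+06 scaled counts of the library. An error beside a CPM is the SD over 3 libraries, and an error beside a log2 fold change is the standard error of the edgeR model with 3 libraries in each group. A gene was called when its adjusted p was below 0.05, with p-values adjusted over all 16946 features. Separate cultures behind the libraries of a group are stated by no label, and the p-values therefore cover only the spread among the libraries as sequenced, possibly a technical one. The circle itself is not measured by a gene count. ASH2L, its host gene, was lower with si-circASH2 in both lines, with log2 fold changes of -0.19 ± 0.05 in Huh7 (adjusted p = 0.00304, edgeR) and -0.24 ± 0.05 in HCCLM3 (adjusted p = 0.0014, edgeR).

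Actin monomers assemble into filaments whose growth is set by monomer-binding proteins such as profilin and thymosin, by nucleators such as the Arp2/3 complex and by proteins that cap the growing end. Filaments are tied into bundles and networks by filamins, alpha-actinins, plastins and fascin, and are pulled by myosin II, a motor of heavy chains with essential and regulatory light chains. Phosphorylation of the regulatory light chains switches the motor on. In carcinoma cells this machinery forms the lamellipodia, filopodia and contractile fibres with which cells move, and in hepatocytes it also shapes the microvilli of the bile canaliculi.

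The labelled cell type was checked against marker genes. All 11 hepatocyte markers reached at least 1 CPM in Huh7, with a summed level between 37572 and 38412 CPM in si-circASH2 libraries and between 39909.6 and 40105 CPM in si-NC libraries. In HCCLM3 8 of 11 reached 1 CPM in either group, the sum lay between 5633 and 5757 CPM with si-circASH2 and between 5489 and 5655 CPM with si-NC, and the keratins KRT8 and KRT18 made most of it, while ALB lay at or below 4.18 CPM. The summed level of 11 smooth muscle and fibroblast markers was low but moved with the knockdown, with 5 of the 11 at or above 1 CPM in either Huh7 group and 2 in either HCCLM3 group. It lay between 59 and 60.9 CPM in Huh7 si-circASH2, against 36.9 to 42.6 CPM in Huh7 si-NC, and between 49.4 and 54.6 CPM in HCCLM3 si-circASH2, against 36.5 to 38.7 CPM in HCCLM3 si-NC. COL1A2 made most of the sum in Huh7 and LUM most of it in HCCLM3, while the smooth muscle actins ACTA2 and ACTG2 stayed at or below 0.196 CPM in every library. The summed level of 4 endothelial markers lay between 23.7 and 24.3 CPM in Huh7 si-circASH2, against 24.1 to 27.4 CPM in Huh7 si-NC, and between 19.6 and 21.8 CPM in HCCLM3 si-circASH2, against 25.9 to 27.7 CPM in HCCLM3 si-NC. PECAM1 made most of it, KDR had 6.68 to 8.69 CPM in HCCLM3 si-circASH2 and 9.87 to 11.7 CPM in HCCLM3 si-NC but was at 0 in Huh7, and CDH5 was at 0 in all libraries but 1.

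With si-circASH2 many of the actin genes differed from si-NC in both lines, mostly upward in Huh7 and in both directions in HCCLM3. This comparison is called the knockdown throughout, though loss of the circle was not measured. In Huh7 25 of the 48 were higher, 7 were lower and 16 did not pass the test, against 16.3% of all features called higher, 15.1% called lower and 31.4% called in either direction. In HCCLM3 14 were higher, 17 were lower and 17 did not pass, against 15.1%, 15.5% and 30.6% of all features. Most of the 48 are abundant, and among the 10048 features with a mean of at least 10 CPM the shares called were 44.5% in Huh7 (21.4% higher, 23.1% lower) and 42.3% in HCCLM3 (20.3% higher, 22% lower). Because the 48 genes were chosen with earlier results of these data known, no excess over these shares was tested. The median log2 fold change of the 48 genes was 0.14 in Huh7, against 0.01 over all features, and -0.01 in HCCLM3, against 0.00 over all features. Summed over the 48 genes, the level lay between 15994 and 16449.7 CPM in Huh7 si-circASH2 libraries, against 15129.9 to 15202 CPM in Huh7 si-NC libraries. In HCCLM3 it lay between 20501 and 21109 CPM with si-circASH2, against 21330.1 to 21825 CPM with si-NC, so the groups did not overlap in either line and stood in opposite order. Abundant genes weigh most in such a sum. In HCCLM3 the largest falls in CPM were ACTB, from 5420 with si-NC to 5067 with si-circASH2, and FLNA, from 2984 to 2756. There 23 of the 48 log2 fold changes were above 0. The count of genes lower in Huh7 dropped to 4 without Huh7 si-NC replicate 1 or without Huh7 si-circASH2 replicate 1. In Huh7 35 of the 48 genes had libraries that did not overlap between the groups, against 42.7% of all features, and in HCCLM3 35 did, against 43.7% (53.8% in Huh7 and 55.3% in HCCLM3 among features of at least 10 CPM). In bulk samples, fewer cells that express a gene and less RNA per cell cannot be told apart.

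**Figure D1:**
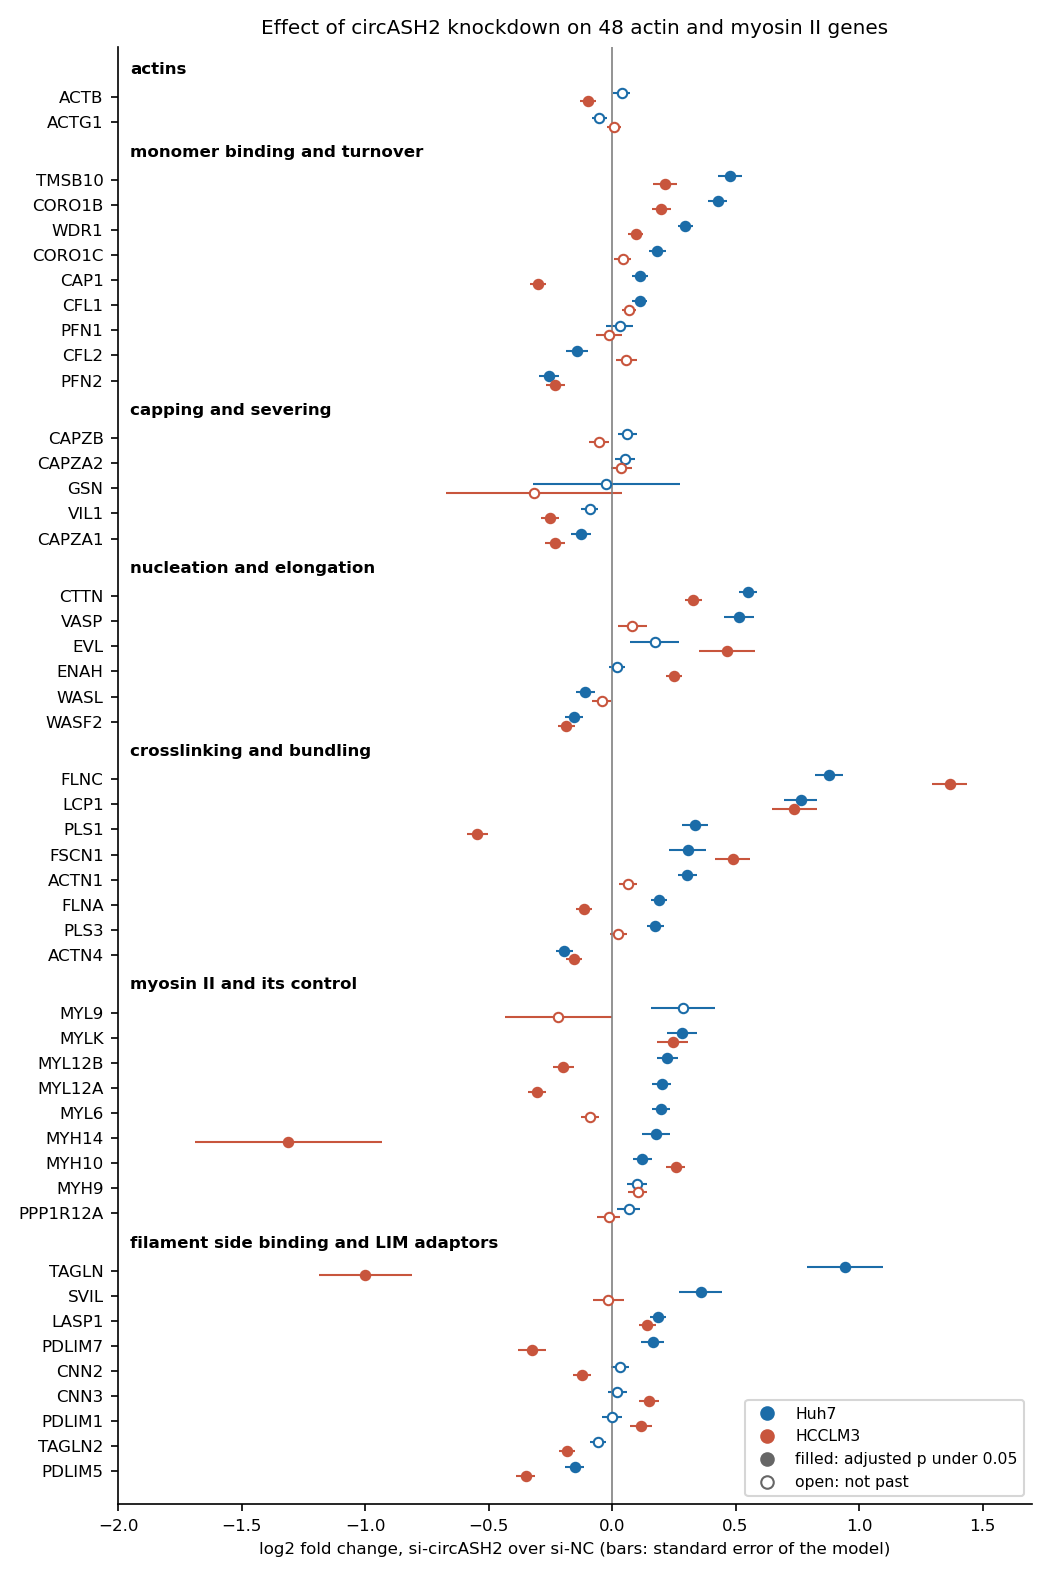
Log2 fold change of si-circASH2 over si-NC for 48 actin and myosin II genes (rows, grouped by role) in Huh7 (blue) and HCCLM3 (red), with the standard error of the edgeR model as bars and filled points where the adjusted p was below 0.05. All 8 crosslinking genes have filled points in Huh7, and TAGLN, PLS1 and MYL12A lie on opposite sides of 0 in the lines.

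FLNC, LCP1 and FSCN1, which crosslink or bundle filaments, had the 3 largest rises of the 48 genes in HCCLM3, and FLNC and LCP1 were among the largest in Huh7. Of 8 crosslinking and bundling genes 7 rose and 1 fell in Huh7 (median log2 fold change 0.31). Among all features 16.3% were called higher there and 15.1% lower. In HCCLM3 3 of the 8 rose, 3 fell and 2 did not pass (median 0.05), against 15.1% of all features higher and 15.5% lower. FLNC, the filamin best known from striated muscle, where it anchors actin at Z-discs, had 276, 283 and 267 CPM in the si-circASH2 libraries, against 144, 150.1 and 155 CPM in the si-NC libraries of Huh7. In HCCLM3 it had 46.2, 53.1 and 42.6 CPM in the si-circASH2 libraries, against 17.6, 19.9 and 17.6 CPM in the si-NC libraries. Every si-circASH2 library lay well above every si-NC library in both lines. FLNC rose by 0.88 ± 0.06 (adjusted p = 9.74e-10, edgeR) on the log2 scale in Huh7 and by 1.37 ± 0.07 (adjusted p = 3.15e-11, edgeR) in HCCLM3. The difference between the rises was 0.49 ± 0.09 (adjusted p = 0.000618, edgeR), a call lost in 2 of 3 limma fits on the deposited FPKM (adjusted p between 0.135 and 0.182). Both lost fits used log2(FPKM + 1), and the call held with log2(FPKM + 0.1). In HCCLM3 FLNC averaged 4.57 FPKM with si-circASH2 and 1.78 FPKM with si-NC.

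LCP1, or L-plastin, bundles actin and is best known from leukocytes. It had 69.8, 78.1 and 69.4 CPM in the si-circASH2 libraries, against 44.2, 42.9 and 40.9 CPM in the si-NC libraries of Huh7. In HCCLM3 its level was much lower, at 12.8, 13.6 and 13.1 CPM in the si-circASH2 libraries, against 9.25, 7.0 and 7.36 CPM in the si-NC libraries. The groups did not overlap in either line, and the log2 rise was of like size, 0.76 ± 0.07 (adjusted p = 4.13e-09, edgeR) in Huh7 and 0.74 ± 0.09 (adjusted p = 8.38e-07, edgeR) in HCCLM3. The difference between the lines was -0.02 ± 0.11, with adjusted p = 0.967 in edgeR. The summed level of 7 leukocyte markers lay between 338 and 366 CPM in Huh7 si-circASH2, against 385 to 420.5 CPM in Huh7 si-NC, and between 172 and 208 CPM in HCCLM3 si-circASH2, against 145 to 166 CPM in HCCLM3 si-NC. LYZ made most of the sum in Huh7, with 299 to 324 CPM in si-circASH2 and 359 to 397 CPM in si-NC libraries, and CD68 most of it in HCCLM3. The macrophage marker CD68 moved with LCP1, at 36.6 to 40.6 CPM in Huh7 si-circASH2 and 20.4 to 21.2 CPM in Huh7 si-NC. In HCCLM3 CD68 had 169.5 to 206 CPM with si-circASH2 and 142 to 164 CPM with si-NC. The other markers did not all follow it. CORO1A was lower with si-circASH2 in both lines, at 0.88 to 1.09 CPM in Huh7, against 1.28 to 2.03 CPM with si-NC. In HCCLM3 CORO1A had 0.373 to 0.705 CPM with si-circASH2 and 1.01 to 1.18 CPM with si-NC. The part of these markers in the LCP1 values was not tested. The pan-leukocyte antigen PTPRC was at 0 in all Huh7 libraries but 1 and at or below 1.03 CPM in HCCLM3, and the T cell gene CD3E was at 0 in all 12 libraries.

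FSCN1, or fascin, packs the parallel bundles of filopodia. It had 46.7, 45.3 and 47.6 CPM in the si-circASH2 libraries, against 33.9, 32.9 and 32.8 CPM in the si-NC libraries of HCCLM3, and 27.9, 24.1 and 26.4 CPM in the si-circASH2 libraries, against 18, 22.4 and 23 CPM in the si-NC libraries of Huh7. The libraries of the groups were apart in both lines, though by a narrow gap in Huh7. FSCN1 rose by 0.49 ± 0.07 (adjusted p = 8.85e-06, edgeR) in HCCLM3 and by 0.31 ± 0.08 (adjusted p = 0.00294, edgeR) in Huh7. PLS3, the broadly expressed plastin, and ACTN1, an alpha-actinin of stress fibres, rose in Huh7 by 0.18 ± 0.03 (adjusted p = 0.000326, edgeR) and 0.30 ± 0.04 (adjusted p = 1.19e-06, edgeR). Their values in HCCLM3 were 0.03 ± 0.03 and 0.06 ± 0.04, neither past the test.

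ACTN4, the second alpha-actinin and a gene linked to cell movement in carcinoma, was the only crosslinker to fall in both lines. It had 569.6, 524 and 535 CPM in the si-circASH2 libraries, against 619, 630.4 and 614 CPM in the si-NC libraries of Huh7, and 967, 992 and 956 CPM in the si-circASH2 libraries, against 1106, 1084 and 1054 CPM in the si-NC libraries of HCCLM3. Its si-circASH2 libraries lay below all si-NC libraries in both lines. The log2 fold changes were -0.19 ± 0.03 (adjusted p = 7.56e-05, edgeR) in Huh7 and -0.15 ± 0.03 (adjusted p = 0.000844, edgeR) in HCCLM3. Exons of CAPN12 on the opposite strand overlap 14.2% of the ACTN4 exonic bases, and no source used here says whether counting used strand.

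**Figure D2:**
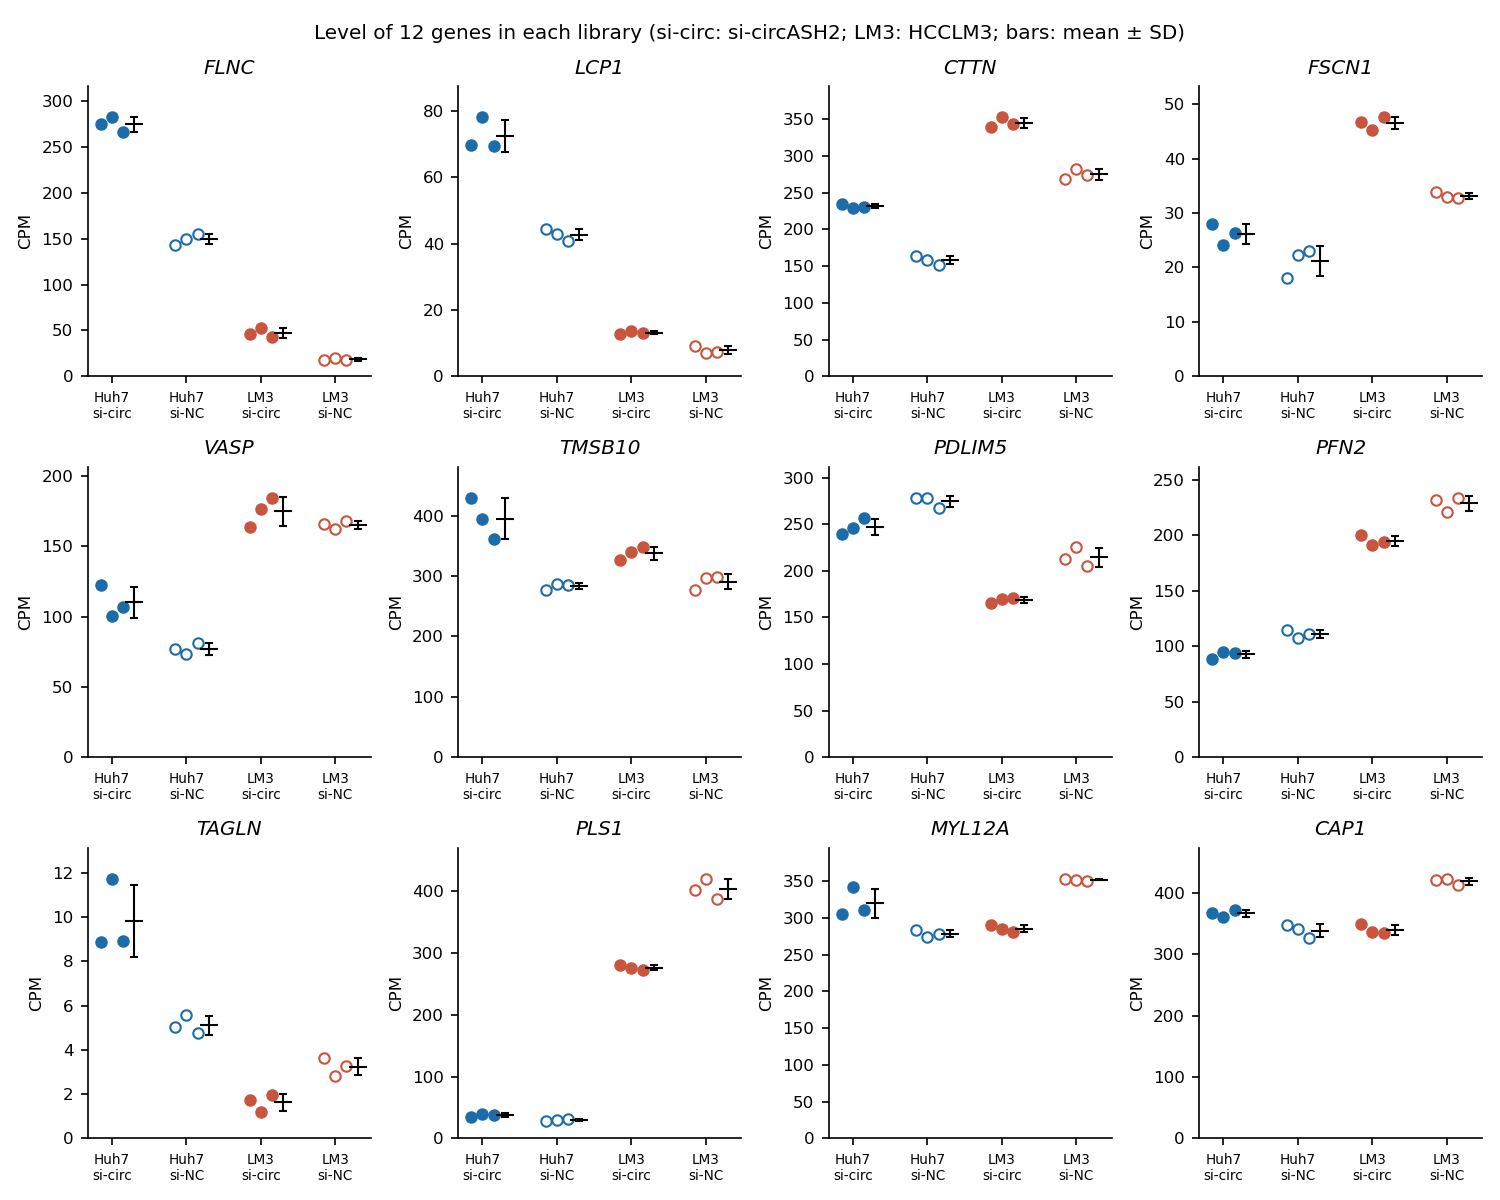
Level (CPM, linear axis from 0) of 12 genes in each of the 12 libraries, with filled points for si-circASH2, open points for si-NC, blue for Huh7 and red for HCCLM3 (LM3), and the mean ± SD of 3 libraries beside them. FLNC, LCP1, CTTN and FSCN1 are higher with si-circASH2 in both lines, while TAGLN, PLS1, MYL12A and CAP1 are higher with it in Huh7 and lower in HCCLM3.

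Among nucleation and elongation factors, CTTN and VASP were the genes that rose in Huh7. CTTN, or cortactin, binds the Arp2/3 complex and stabilises branched filaments at the leading edge. It had 234, 229.6 and 230.2 CPM in the si-circASH2 libraries, against 163, 159 and 152 CPM in the si-NC libraries of Huh7, and 339, 353 and 343 CPM in the si-circASH2 libraries, against 268, 282 and 274 CPM in the si-NC libraries of HCCLM3. In each line the si-circASH2 libraries were the 3 highest, with log2 rises of 0.55 ± 0.04 (adjusted p = 3.13e-11, edgeR) in Huh7 and 0.33 ± 0.03 (adjusted p = 1.08e-07, edgeR) in HCCLM3. The rise was smaller in HCCLM3 by 0.22 ± 0.05 (adjusted p = 0.00203, edgeR).

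The Ena/VASP proteins lengthen filaments by shielding their growing ends from capping, and their 3 genes did not follow one pattern. VASP had 123, 101 and 107 CPM in the si-circASH2 libraries, against 76.7, 73.3 and 81.4 CPM in the si-NC libraries of Huh7, a gap between the groups with the highest value in si-circASH2 replicate 1. It rose there by 0.51 ± 0.06 (adjusted p = 4.42e-06, edgeR), while its value in HCCLM3 was 0.08 ± 0.06 (adjusted p = 0.338, edgeR) with overlapping libraries. EVL had 10.1, 8.66 and 9.5 CPM in the si-circASH2 libraries, against 7.57, 6.23 and 6.67 CPM in the si-NC libraries of HCCLM3, with no overlap. EVL rose in HCCLM3 by 0.46 ± 0.11 (adjusted p = 0.00261, edgeR) and was at 0.17 ± 0.10 in Huh7, where the libraries overlapped. ENAH, or Mena, averaged 199.5 ± 7.96 CPM with si-circASH2 and 168 ± 1.76 CPM with si-NC in HCCLM3, a rise of 0.25 ± 0.03 (adjusted p = 3.65e-06, edgeR). In Huh7 ENAH was at 0.02 ± 0.03 and did not pass.

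The Arp2/3 activators WASF2 and WASL were called lower in Huh7, while CTTN, which also binds the complex, rose there. WASF2, or WAVE2, which turns on Arp2/3 downstream of Rac, had 111, 115 and 113 CPM in the si-circASH2 libraries, against 126, 124 and 127 CPM in the si-NC libraries of Huh7. Its HCCLM3 level was 116, 117 and 114 CPM in the si-circASH2 libraries, against 132, 134 and 129 CPM in the si-NC libraries. The decrease was small but free of overlap in both lines, with log2 fold changes of -0.15 ± 0.04 (adjusted p = 0.00195, edgeR) in Huh7 and -0.18 ± 0.04 (adjusted p = 0.000328, edgeR) in HCCLM3. WASL, or N-WASP, its relative downstream of Cdc42, was at -0.11 ± 0.04 (adjusted p = 0.0367, edgeR) in Huh7 and at -0.04 ± 0.04 in HCCLM3, where it did not pass. The Huh7 call for WASL was lost without si-NC replicates 1, 2 and 3 or si-circASH2 replicates 1 and 2 (adjusted p between 0.0634 and 0.147, each left out alone) and with upper quartile scaling (adjusted p = 0.0741).

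Of 9 genes for monomer binding and filament turnover, 6 rose, 2 fell and 1 did not pass in Huh7. Among all features 16.3% were called higher there and 15.1% lower. In HCCLM3 3 rose, 2 fell and 4 did not pass, against 15.1% of all features higher and 15.5% lower. TMSB10, or thymosin beta 10, holds actin monomers out of filaments. It had 429, 395 and 361 CPM in the si-circASH2 libraries, against 277, 287 and 286 CPM in the si-NC libraries of Huh7, and 327, 339 and 347 CPM in the si-circASH2 libraries, against 277, 297 and 299 CPM in the si-NC libraries of HCCLM3. The groups were apart in both lines, with the widest spread in Huh7 si-circASH2. TMSB10 rose by 0.48 ± 0.05 (adjusted p = 1.81e-07, edgeR) in Huh7 and by 0.22 ± 0.05 (adjusted p = 0.00174, edgeR) in HCCLM3.

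CORO1B, a coronin that opposes Arp2/3 branches and helps cofilin to take filaments apart, averaged 287 ± 11.6 CPM with si-circASH2 and 213 ± 2.98 CPM with si-NC in Huh7. In HCCLM3 it averaged 86 ± 1.47 CPM with si-circASH2 and 74.9 ± 2.87 CPM with si-NC. Its rise was 0.43 ± 0.04 (adjusted p = 5.94e-09, edgeR) in Huh7 and 0.20 ± 0.04 (adjusted p = 0.000456, edgeR) in HCCLM3. WDR1, a cofactor of cofilin, rose by 0.30 ± 0.03 (adjusted p = 1.13e-07, edgeR) in Huh7 and by 0.10 ± 0.03 (adjusted p = 0.0236, edgeR) in HCCLM3. The HCCLM3 call for WDR1 was lost without si-NC replicates 1 and 2 or si-circASH2 replicates 1 and 3 (adjusted p between 0.0523 and 0.103, each left out alone) and with limma on the deposited FPKM (adjusted p between 0.0753 and 0.0814). CORO1C, a second coronin, rose in Huh7 by 0.18 ± 0.03 (adjusted p = 0.000172, edgeR) and was at 0.04 ± 0.03 (adjusted p = 0.373, edgeR) in HCCLM3.

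CFL1, the main cofilin of non-muscle cells, which cuts old filaments, had 568, 540.5 and 539 CPM in the si-circASH2 libraries, against 513, 509 and 502 CPM in the si-NC libraries of Huh7. HCCLM3 libraries held 811, 809 and 831 CPM in the si-circASH2 libraries, against 782, 781 and 774 CPM in the si-NC libraries. The libraries did not overlap in either line, but the differences were small. CFL1 rose in Huh7 by 0.11 ± 0.03 (adjusted p = 0.00543, edgeR) and was at 0.07 ± 0.03 in HCCLM3 (adjusted p = 0.0856, edgeR), where it was called higher in 2 of 15 alternative settings, with DESeq2 and with the line fitted alone (adjusted p between 0.0109 and 0.0452). Its muscle-type relative CFL2 had 73.1, 79.9 and 76.6 CPM in the si-circASH2 libraries, against 86.6, 80.3 and 86.4 CPM in the si-NC libraries of Huh7, where the highest si-circASH2 library came close to the lowest si-NC library. CFL2 was called lower in Huh7 at -0.14 ± 0.04 (adjusted p = 0.0148, edgeR), a call lost without si-NC replicates 1 and 3 or si-circASH2 replicate 1 (adjusted p between 0.0608 and 0.0841, each left out alone). In HCCLM3 CFL2 was at 0.06 ± 0.04 (adjusted p = 0.358, edgeR). Exons of MUS81 and SNX32 on the opposite strand overlap 19% of the exonic bases of CFL1.

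Profilins deliver monomers to growing ends. PFN2, the form best known from nerve cells, had 88.9, 95.3 and 94.2 CPM in the si-circASH2 libraries, against 114, 107 and 111 CPM in the si-NC libraries of Huh7. HCCLM3 had 200.1, 191 and 194 CPM in the si-circASH2 libraries, against 232, 221 and 234 CPM in the si-NC libraries. All si-circASH2 libraries were below all si-NC libraries in both lines, with log2 fold changes of -0.26 ± 0.04 (adjusted p = 2.3e-05, edgeR) in Huh7 and -0.23 ± 0.04 (adjusted p = 6.05e-05, edgeR) in HCCLM3, the second lost in 1 of 3 limma fits on the deposited FPKM (adjusted p = 0.0588). PFN1, the common form, had 622, 532 and 530.4 CPM in the si-circASH2 libraries, against 551, 547 and 551 CPM in the si-NC libraries of Huh7, and 558, 567 and 616 CPM in the si-circASH2 libraries, against 563, 592 and 601 CPM in the si-NC libraries of HCCLM3. The PFN1 groups overlapped in both lines, and its log2 fold changes were 0.03 ± 0.05 (adjusted p = 0.742, edgeR) and -0.01 ± 0.05 (adjusted p = 0.929, edgeR). PFN1 has 10 named pseudogene copies, CFL1 has 8, and the sources used here do not give how reads shared with such copies were counted.

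The actins themselves changed little. ACTB had 4177, 3766 and 4100.4 CPM in the si-circASH2 libraries, against 3921, 3912 and 3895 CPM in the si-NC libraries of Huh7, with overlap. In HCCLM3 ACTB had 5127, 5130.2 and 4943 CPM in the si-circASH2 libraries, against 5515, 5439.8 and 5305 CPM in the si-NC libraries, with every si-circASH2 library below every si-NC library. Its log2 fold changes were 0.04 ± 0.03 (adjusted p = 0.42, edgeR) in Huh7 and -0.10 ± 0.03 (adjusted p = 0.0278, edgeR) in HCCLM3, and the second call was lost without si-NC replicates 1 and 2 or si-circASH2 replicates 2 and 3 (adjusted p between 0.0531 and 0.103, each left out alone) and with limma on the deposited FPKM (adjusted p between 0.0807 and 0.0937). ACTB was called higher in Huh7 in 1 of 15 alternative settings, without Huh7 si-circASH2 replicate 2 (adjusted p = 0.0442). ACTG1 had 1384, 1399.9 and 1346 CPM in the si-circASH2 libraries, against 1394, 1435 and 1449.9 CPM in the si-NC libraries of Huh7, and 2766, 2763 and 2682 CPM in the si-circASH2 libraries, against 2727, 2753 and 2681 CPM in the si-NC libraries of HCCLM3. Its groups overlapped in both lines, with log2 fold changes of -0.05 ± 0.03 (adjusted p = 0.19, edgeR) and 0.01 ± 0.03 (adjusted p = 0.887, edgeR). ACTB and ACTG1 have 10 and 20 named pseudogene copies, so their counts may include or lose shared reads.

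None of 5 capping and severing genes was called higher in either line, against 16.3% of all features in Huh7 and 15.1% in HCCLM3. With 5 genes this count does not set the class apart from those shares. In Huh7 1 was called lower and 4 did not pass, and in HCCLM3 2 were called lower and 3 did not pass. Of all features 15.1% were called lower in Huh7 and 15.5% in HCCLM3. CAPZA1, an alpha subunit of the heterodimer that caps growing ends, had 194, 195 and 183 CPM in the si-circASH2 libraries, against 227, 223 and 220.0 CPM in the si-NC libraries of HCCLM3, and 186, 203 and 202 CPM in the si-circASH2 libraries, against 222, 217 and 205 CPM in the si-NC libraries of Huh7. The groups did not overlap in either line, but in Huh7 the gap was narrow. CAPZA1 fell by 0.23 ± 0.04 in HCCLM3 (adjusted p = 0.000116, edgeR) and was called lower in Huh7 at -0.13 ± 0.04 (adjusted p = 0.0198, edgeR), a call lost without si-NC replicates 1 and 2 or si-circASH2 replicate 1 (adjusted p between 0.068 and 0.135, each left out alone) and in 1 of 3 limma fits on the deposited FPKM (adjusted p = 0.072). The other alpha subunit CAPZA2 and the beta subunit CAPZB did not pass in either line, with log2 values between -0.05 and 0.06. VIL1, or villin, of epithelial microvilli, averaged 102 ± 2.77 CPM with si-circASH2 and 121 ± 3.95 CPM with si-NC in HCCLM3, a log2 fold change of -0.25 ± 0.04 (adjusted p = 1.03e-05, edgeR). In Huh7 VIL1 was at -0.09 ± 0.03 (adjusted p = 0.0521, edgeR), with libraries that did not overlap, and was called lower in 5 of 15 alternative settings, with DESeq2, with no filter on low counts, with the replicate block, with the line fitted alone and with limma on log2(FPKM + 1) (adjusted p between 0.0152 and 0.0469). Exons on the opposite strand overlap 44% of the exonic bases of VIL1 (USP37) and 15.1% of those of CAPZA1 (ST7L).

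GSN, or gelsolin, which cuts and caps filaments when calcium rises, varied widely between libraries of HCCLM3. In HCCLM3 it had 34.6, 31.6 and 19.3 CPM in the si-circASH2 libraries, against 46.8, 42.8 and 17.1 CPM in the si-NC libraries. In both groups replicate 3 was the low library. In Huh7 GSN had 187, 166 and 188 CPM in the si-circASH2 libraries, against 173, 173 and 204 CPM in the si-NC libraries, with overlap. Its log2 fold changes were -0.32 ± 0.36 (adjusted p = 0.585, edgeR) in HCCLM3 and -0.02 ± 0.30 (adjusted p = 0.989, edgeR) in Huh7. The model estimates a shared spread over all 4 groups, so the Huh7 error includes the spread seen in HCCLM3. With these errors the test could not detect a change of the size seen for CTTN, though the Huh7 libraries were closer together.

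Calls among myosin II genes were upward in Huh7 and went both ways in HCCLM3. Of 9 genes 6 rose, none fell and 3 did not pass in Huh7, against 16.3% of all features called higher and 15.1% lower. In HCCLM3 2 rose, 3 fell and 4 did not pass, against 15.1% of all features higher and 15.5% lower. The 3 falls include MYH14, at 2 to 19 counts per library, which passed the low-count filter only through its level in Huh7. MYH9, the heavy chain of the main non-muscle isoform IIA, had 552, 561 and 528 CPM in the si-circASH2 libraries, against 486, 523 and 522 CPM in the si-NC libraries of Huh7. In HCCLM3 it had 655, 711 and 632 CPM in the si-circASH2 libraries, against 615, 631 and 614 CPM in the si-NC libraries. The groups were narrowly apart in both lines, but neither value passed, at 0.10 ± 0.04 (adjusted p = 0.0577, edgeR) in Huh7 and 0.10 ± 0.04 (adjusted p = 0.0517, edgeR) in HCCLM3. MYH9 was called higher in Huh7 in 4 of 15 alternative settings, with upper quartile scaling, with DESeq2, with the replicate block and without Huh7 si-circASH2 replicate 3 (adjusted p between 0.0308 and 0.0486), and in HCCLM3 in 7 of 15 alternative settings, with RLE scaling, with upper quartile scaling, with DESeq2, with no filter on low counts, with the replicate block, with the line fitted alone and without HCCLM3 si-circASH2 replicate 3 (adjusted p between 0.0156 and 0.0492). MYH10, the heavy chain of isoform IIB, had 151, 154 and 149.8 CPM in the si-circASH2 libraries, against 124, 127 and 129 CPM in the si-NC libraries of HCCLM3, with no overlap, and rose there by 0.26 ± 0.04 (adjusted p = 1.54e-05, edgeR). In Huh7 it was called higher at 0.12 ± 0.04 (adjusted p = 0.0143, edgeR), a call lost without si-NC replicates 1 and 3 or si-circASH2 replicate 2 (adjusted p between 0.0561 and 0.0906, each left out alone) and with limma on the deposited FPKM (adjusted p between 0.0772 and 0.0906).

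MYH14, the heavy chain of isoform IIC, was expressed in Huh7 and nearly absent from HCCLM3. In Huh7 it had 90.7, 87 and 86.8 CPM in the si-circASH2 libraries, against 75, 77.6 and 81 CPM in the si-NC libraries, apart in every library, and was called higher at 0.18 ± 0.06 (adjusted p = 0.0178, edgeR). That call was lost without si-NC replicates 1 and 2 or si-circASH2 replicate 1 (adjusted p between 0.06 and 0.0855, each left out alone) and in 1 of 3 limma fits on the deposited FPKM (adjusted p = 0.09). In HCCLM3 its counts were 2, 6 and 8 in the si-circASH2 libraries, against 9, 12 and 19 in the si-NC libraries. The groups did not overlap, but the log2 fold change of -1.31 ± 0.38 (adjusted p = 0.0103, edgeR) rests on these few reads, and the call was lost without si-NC replicate 3 or si-circASH2 replicate 1 (adjusted p between 0.0877 and 0.105, each left out alone) and in 2 of 3 limma fits on the deposited FPKM (adjusted p between 0.529 and 0.541). Counts this low are uncertain in the deposited table, where a count of 1 occurs 1938 times and a count of 2 occurs 6826 times.

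The regulatory light chains MYL12A and MYL12B, neighbours on chromosome 18 (3247481 to 3256236 and 3261479 to 3278431, plus strand, GRCh38), moved in opposite directions in the lines. MYL12A had 306, 342 and 312 CPM in the si-circASH2 libraries, against 283, 274 and 278 CPM in the si-NC libraries of Huh7. MYL12A in HCCLM3 had 290.3, 285 and 281 CPM in the si-circASH2 libraries, against 353, 352 and 351 CPM in the si-NC libraries. The si-circASH2 libraries of MYL12A all lay above the si-NC libraries in Huh7 and all lay below them in HCCLM3. The log2 fold changes were 0.20 ± 0.04 (adjusted p = 0.000188, edgeR) and -0.30 ± 0.04 (adjusted p = 9.43e-07, edgeR). MYL12B had 358, 410.2 and 373 CPM in the si-circASH2 libraries, against 335, 325 and 318 CPM in the si-NC libraries of Huh7, and 371, 377 and 349 CPM in the si-circASH2 libraries, against 415, 433 and 409 CPM in the si-NC libraries of HCCLM3. It showed the same order of groups, with log2 fold changes of 0.22 ± 0.04 (adjusted p = 0.000298, edgeR) in Huh7 and -0.20 ± 0.04 (adjusted p = 0.00109, edgeR) in HCCLM3. The paralogs are closely similar in coding sequence, so reads could be split between them by the authors' counting.

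MYL9, the regulatory light chain of smooth muscle, was a minor form and did not pass in either line. It had 14.4, 16.8 and 13.9 CPM in the si-circASH2 libraries, against 11.4, 14.1 and 11.5 CPM in the si-NC libraries of Huh7, and 1.05, 1.03 and 1.54 CPM in the si-circASH2 libraries, against 1.08, 1.36 and 1.77 CPM in the si-NC libraries of HCCLM3. Its groups overlapped in both lines, with log2 fold changes of 0.29 ± 0.13 (adjusted p = 0.0948, edgeR) and -0.22 ± 0.22 (adjusted p = 0.506, edgeR). MYL9 was called higher in Huh7 in 1 of 15 alternative settings, with the line fitted alone (adjusted p = 0.0369). MYL6, the essential light chain, rose in Huh7 by 0.20 ± 0.04 (adjusted p = 0.000162, edgeR) and was at -0.09 ± 0.04 in HCCLM3 (adjusted p = 0.0674, edgeR), where its libraries did not overlap and it was called lower in 3 of 15 alternative settings, with DESeq2, with the replicate block and with the line fitted alone (adjusted p between 0.0265 and 0.0496). MYLK, the kinase that phosphorylates the regulatory light chains, rose in both lines, by 0.28 ± 0.06 (adjusted p = 0.00108, edgeR) in Huh7 and 0.25 ± 0.06 (adjusted p = 0.00427, edgeR) in HCCLM3. The Huh7 call for MYLK was lost with limma on the deposited FPKM (adjusted p between 0.209 and 0.325), and the HCCLM3 call with limma on the deposited FPKM (adjusted p between 0.266 and 0.396). PPP1R12A, the targeting subunit of the phosphatase that reverses this step, was at 0.07 ± 0.05 in Huh7 and -0.01 ± 0.05 in HCCLM3. It passed in neither. Exons on the opposite strand, those of SMARCC2 among them, overlap 12% of the exonic bases of MYL6.

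Among 9 side-binding and LIM adaptor proteins, 4 rose and 1 fell in Huh7, against 16.3% of all features higher and 15.1% lower. In HCCLM3 3 rose and 5 fell, against 15.1% of all features higher and 15.5% lower. TAGLN, or SM22, an actin-binding protein of smooth muscle, had 8.87, 11.7 and 8.94 CPM in the si-circASH2 libraries, against 5.02, 5.57 and 4.75 CPM in the si-NC libraries of Huh7. TAGLN in HCCLM3 had 1.73, 1.19 and 1.95 CPM in the si-circASH2 libraries, against 3.63, 2.83 and 3.27 CPM in the si-NC libraries. The level was low in both lines, and the groups were apart in opposite orders. TAGLN rose by 0.94 ± 0.15 (adjusted p = 4.13e-05, edgeR) in Huh7, the largest rise among the 48 genes there, and its log2 fold change in HCCLM3 was -1.0 ± 0.19 (adjusted p = 0.000227, edgeR). The summed smooth muscle and fibroblast markers, by contrast, were higher with si-circASH2 in both lines, and their part in these values was not tested. The smooth muscle gene CNN1 had 1.69, 2.48 and 2.2 CPM in the si-circASH2 libraries, against 1.61, 1.5 and 1.44 CPM in the si-NC libraries of Huh7, and was at or below 0.403 CPM in HCCLM3. Exons of PCSK7 on the opposite strand overlap 11.4% of the exonic bases of TAGLN.

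The PDZ and LIM domain proteins tie signalling proteins to actin fibres. PDLIM5 had 165, 169.6 and 171 CPM in the si-circASH2 libraries, against 213, 226 and 205 CPM in the si-NC libraries of HCCLM3, and 239, 246 and 256 CPM in the si-circASH2 libraries, against 278, 278 and 268 CPM in the si-NC libraries of Huh7. It was lower in every si-circASH2 library of both lines, with log2 fold changes of -0.35 ± 0.04 (adjusted p = 1.96e-07, edgeR) in HCCLM3 and -0.15 ± 0.04 (adjusted p = 0.00338, edgeR) in Huh7. PDLIM7 had 78.7, 73.2 and 71.4 CPM in the si-circASH2 libraries, against 66, 65.2 and 68.1 CPM in the si-NC libraries of Huh7, and 21.2, 20.5 and 19.6 CPM in the si-circASH2 libraries, against 25.4, 25.6 and 25.8 CPM in the si-NC libraries of HCCLM3. Its groups stood in opposite orders, with log2 fold changes of 0.16 ± 0.05 (adjusted p = 0.00974, edgeR) in Huh7 and -0.32 ± 0.06 (adjusted p = 8.44e-05, edgeR) in HCCLM3. The Huh7 call for PDLIM7 was lost without si-circASH2 replicate 1 (adjusted p = 0.0693). PDLIM1 was at 0.00 ± 0.04 in Huh7 and at 0.12 ± 0.04 (adjusted p = 0.0442, edgeR) in HCCLM3, a call lost without si-NC replicates 1, 2 and 3 or si-circASH2 replicates 1 and 2 (adjusted p between 0.0683 and 0.177, each left out alone), in 1 of 3 limma fits on the deposited FPKM (adjusted p = 0.0648) and with no filter on low counts (adjusted p = 0.0567).

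The calponins CNN2 and CNN3, which stabilise filaments, passed in HCCLM3, in opposite directions, CNN3 at 0.15 ± 0.04 (adjusted p = 0.00757, edgeR) and CNN2 at -0.12 ± 0.04 (adjusted p = 0.0137, edgeR). The CNN3 call was lost without si-NC replicate 2 (adjusted p = 0.0544), and the CNN2 call without si-circASH2 replicate 3 (adjusted p = 0.0766). Their log2 values in Huh7 were 0.02 ± 0.04 and 0.03 ± 0.04. TAGLN2, the broadly expressed transgelin, fell in HCCLM3 by 0.18 ± 0.03 (adjusted p = 0.0001, edgeR), and LASP1, a LIM and SH3 domain protein of focal adhesions, rose in both lines by 0.19 ± 0.03 in Huh7 and 0.14 ± 0.03 in HCCLM3 (adjusted p = 0.000146 and 0.00206, edgeR). SVIL, or supervillin, which links membranes to actin and myosin II, rose in Huh7 by 0.36 ± 0.09 (adjusted p = 0.00241, edgeR). This call was lost with limma on the deposited FPKM (adjusted p between 0.113 and 0.199), and the value in HCCLM3 was -0.02 ± 0.06.

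Across the 2 knockdowns, which share no library, 10 of the 48 genes were higher in both lines, 5 were lower in both and 8 were higher in Huh7 and lower in HCCLM3. None was lower in Huh7 and higher in HCCLM3. The same patterns held 5.64%, 5.71%, 1.93% and 1.53% of all features, and 8.2%, 9.16%, 2.97% and 2.49% of features of at least 10 CPM. As shares of the 48 genes the counts come to 20.8%, 10.4%, 16.7% and 0% of them. The genes higher in both lines were FLNC, LCP1, FSCN1, CTTN, TMSB10, CORO1B, WDR1, LASP1, MYH10 and MYLK. Those lower in both were PFN2, ACTN4, PDLIM5, WASF2 and CAPZA1. Those of opposite direction were PLS1, TAGLN, MYL12A, MYL12B, CAP1, PDLIM7, FLNA and MYH14. MYH14 in HCCLM3 passed the filter on low counts only through its level in Huh7 and was not tested with HCCLM3 fitted alone, so its place among the 8 rests on few reads. Under 21 alternative settings the count of opposite calls lay between 6 and 9, that of genes higher in both between 7 and 12 and that of genes lower in both between 3 and 6, with the lowest of the last in limma on the FPKM of all features above 0. A setting that leaves out a library of one line keeps the calls of the other line as they were.

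**Figure D3:**
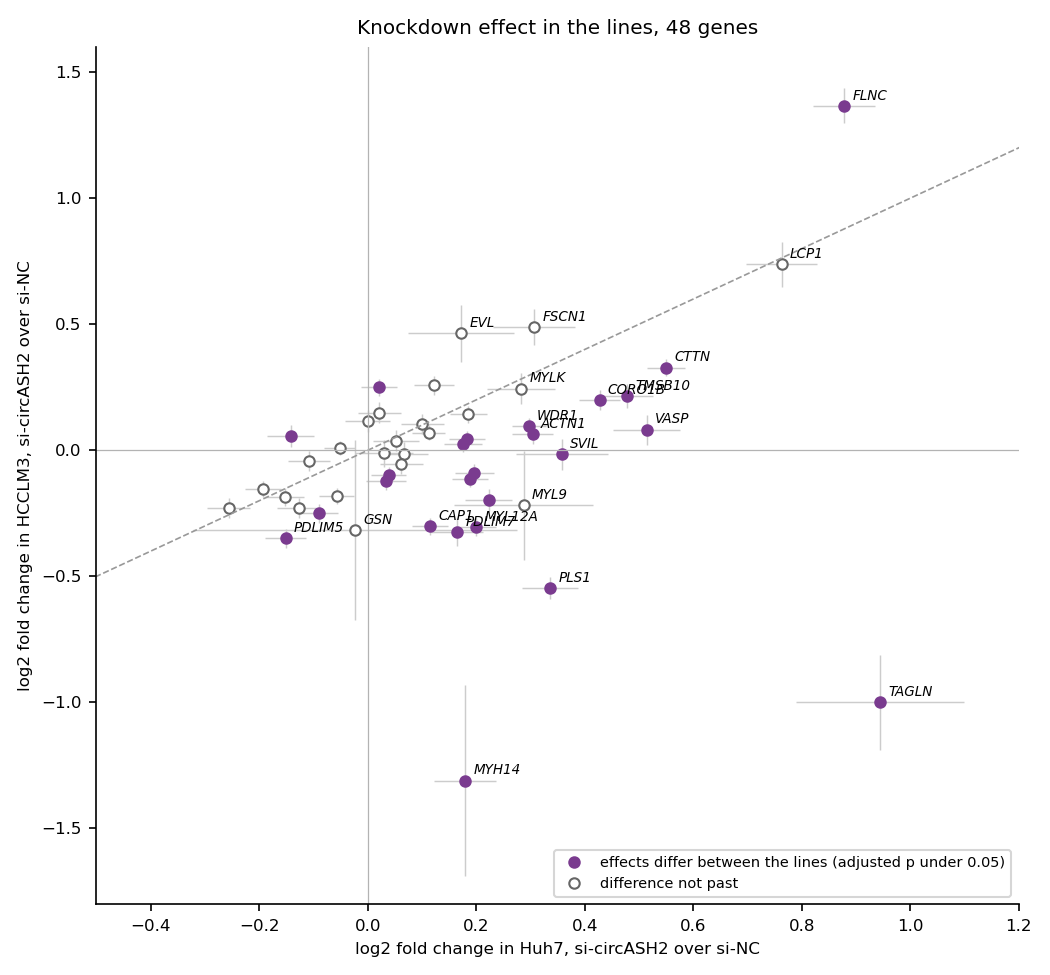
Log2 fold change of si-circASH2 over si-NC in Huh7 (x axis) against that in HCCLM3 (y axis) for 48 genes, with standard errors as grey bars, the line of equal effects dashed, and filled points where the difference of the effects had an adjusted p below 0.05. FLNC and LCP1 lie at the upper right, while TAGLN, PLS1 and MYH14 lie at positive x and negative y.

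The difference of the knockdown effects, HCCLM3 minus Huh7, passed for 25 of the 48 genes, against 20.9% of all features and 30.5% of those of at least 10 CPM. It was lower than 0 for 22 of them, against 11.3% and 16.1%, and above 0 for 3, against 9.6% and 14.4%. The 3 above 0 were FLNC, ENAH and CFL2. The median difference of the 48 genes was -0.13, against -0.02 over all features. PLS1, a plastin of epithelial microvilli, had 34, 39.8 and 38.5 CPM in the si-circASH2 libraries, against 28.8, 29.3 and 30.9 CPM in the si-NC libraries of Huh7, and 280.5, 275 and 273 CPM in the si-circASH2 libraries, against 402, 419 and 387 CPM in the si-NC libraries of HCCLM3. All si-circASH2 libraries were above the si-NC libraries in Huh7 and below them in HCCLM3. Its log2 fold changes were 0.34 ± 0.05 (adjusted p = 2.25e-05, edgeR) and -0.55 ± 0.04 (adjusted p = 1.13e-09, edgeR), and the difference was -0.88 ± 0.07 (adjusted p = 2.04e-09, edgeR).

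CAP1, which frees monomers from cofilin and recharges them, had 366, 361 and 372 CPM in the si-circASH2 libraries, against 347, 341 and 327 CPM in the si-NC libraries of Huh7. The HCCLM3 values were 349, 336 and 334 CPM in the si-circASH2 libraries, against 421, 422 and 412 CPM in the si-NC libraries. The groups were apart in opposite orders, with log2 fold changes of 0.11 ± 0.03 (adjusted p = 0.00878, edgeR) in Huh7 and -0.30 ± 0.03 (adjusted p = 1.48e-07, edgeR) in HCCLM3. The Huh7 call was lost without si-NC replicate 3 (adjusted p = 0.0578) and with limma on the deposited FPKM (adjusted p between 0.137 and 0.183), and PPT1 on the opposite strand overlaps 31.2% of the exonic bases of CAP1. The difference was -0.42 ± 0.05 (adjusted p = 4.73e-07, edgeR), and it was -1.94 ± 0.24 (adjusted p = 2.55e-06, edgeR) for TAGLN, -0.50 ± 0.05 (adjusted p = 2.16e-07, edgeR) for MYL12A, -0.42 ± 0.06 (adjusted p = 2.04e-05, edgeR) for MYL12B and -0.49 ± 0.07 (adjusted p = 2.81e-05, edgeR) for PDLIM7. FLNA, the main filamin of non-muscle cells, was called higher in Huh7 at 0.19 ± 0.03 (adjusted p = 8.26e-05, edgeR) and lower in HCCLM3 at -0.11 ± 0.03 (adjusted p = 0.00843, edgeR), with a difference of -0.30 ± 0.05 (adjusted p = 3.09e-05, edgeR). The HCCLM3 call for FLNA was lost without si-NC replicate 2 (adjusted p = 0.0508).

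Levels of paralogs were compared per length from the deposited FPKM, as each gene's share of its family in a library. With 3 libraries against 3, an exact two-sided permutation test cannot give a p below 0.1, and every share difference named here without another p had that smallest p. In the plastins LCP1 held 21% ± 0.681 in Huh7 si-circASH2 and 14.9% ± 0.386 in Huh7 si-NC, with PLS3 the main form at 68.2% ± 0.598 with si-circASH2 and 74.8% ± 0.129 with si-NC. In HCCLM3 PLS1 held 38.4% ± 0.724 of the plastin FPKM with si-circASH2 and 48.4% ± 0.46 with si-NC, and PLS3 held 59.9% ± 0.706 with si-circASH2 and 50.7% ± 0.382 with si-NC.

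Among the alpha-actinins ACTN1 held 39.6% ± 1.19 in Huh7 si-circASH2 and 31.7% ± 0.503 in Huh7 si-NC, and 28.8% ± 0.612 in HCCLM3 si-circASH2 and 25.8% ± 0.128 in HCCLM3 si-NC. Within Ena/VASP the VASP share was 50.003% ± 2.48 with si-circASH2 and 42% ± 1.92 with si-NC in Huh7. In HCCLM3 it stood the other way round, at 73.4% ± 1.89 with si-circASH2 and 78% ± 0.627 with si-NC. The myosin II heavy chains were dominated by MYH9, at 54.1% ± 0.724 in Huh7 si-circASH2 and 55.1% ± 1.27 in Huh7 si-NC (exact p = 0.4). MYH9 held 81.5% ± 0.701 in HCCLM3 si-circASH2 and 83.1% ± 0.375 in HCCLM3 si-NC, where MYH14 was at 0.022% ± 0.0131 with si-circASH2 and 0.0625% ± 0.0219 with si-NC. The summed FPKM of the regulatory light chains over that of the heavy chains was 4.37 ± 0.249 in Huh7 si-circASH2 and 4.12 ± 0.204 in Huh7 si-NC, with libraries that overlapped. It was 4.96 ± 0.181 in HCCLM3 si-circASH2 and 6.44 ± 0.0481 in HCCLM3 si-NC, with no overlap. ACTB held 75.3% ± 1.21 of the actin FPKM in Huh7 si-circASH2 and 74.1% ± 0.436 in Huh7 si-NC (exact p = 0.3), and 65.8% ± 0.156 in HCCLM3 si-circASH2 and 67.5% ± 0.271 in HCCLM3 si-NC.

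**Figure D4:**
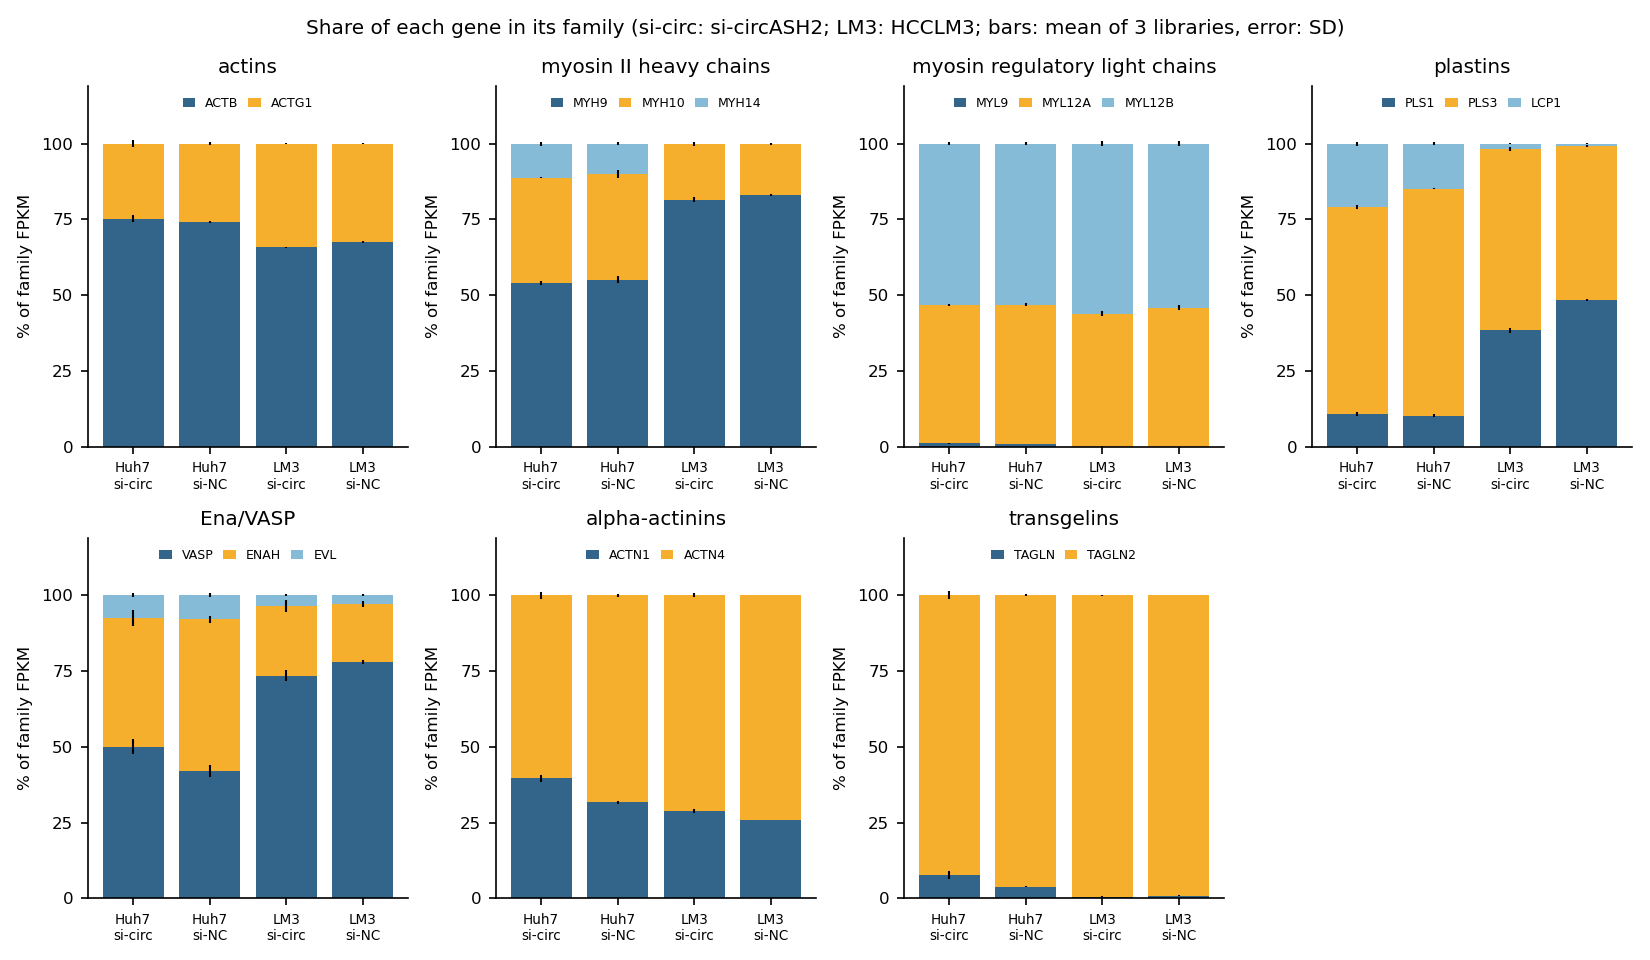
Share of each paralog in the summed FPKM of its family (percent, mean of 3 libraries with SD) for 7 families in Huh7 and HCCLM3 (LM3), each with si-circASH2 (si-circ) and si-NC. LCP1 and ACTN1 take a larger share with si-circASH2 in Huh7, and PLS1 takes a smaller share with si-circASH2 in HCCLM3.

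The lines differed at baseline far more than the siRNAs within a line. With si-NC 43 of the 48 genes differed between HCCLM3 and Huh7, 23 higher and 20 lower in HCCLM3, against 85.2% of all features (41.6% higher and 43.6% lower), and 89.4% of features of at least 10 CPM (45.4% higher and 43.9% lower). The libraries did not overlap for 45, against 86.5% of all features and 90.4% of those of at least 10 CPM, so the size of the differences is given. PLS1 had 402, 419 and 387 CPM in HCCLM3 si-NC, against 28.8, 29.3 and 30.9 CPM in Huh7 si-NC, a log2 difference of 3.76 ± 0.05 (adjusted p = 2.17e-26, edgeR). SVIL had 84.1, 87 and 87.3 CPM in HCCLM3 si-NC, against 10.4, 12.6 and 11 CPM in Huh7 si-NC, a difference of 2.93 ± 0.07 (adjusted p = 3.75e-20, edgeR). FLNA had 3005, 3036 and 2910.0 CPM in HCCLM3 si-NC, against 563, 578 and 576 CPM in Huh7 si-NC, a difference of 2.38 ± 0.03 (adjusted p = 5.97e-26, edgeR). All libraries of HCCLM3 lay above all of Huh7 for these genes. TAGLN2 had 485, 464 and 461 CPM in HCCLM3 si-NC, against 186, 187 and 186 CPM in Huh7 si-NC. VASP had 166, 162 and 168 CPM in HCCLM3 si-NC, against 76.7, 73.3 and 81.4 CPM in Huh7 si-NC. Their log2 differences were 1.34 ± 0.03 (adjusted p = 2.16e-21, edgeR) and 1.10 ± 0.06 (adjusted p = 6.38e-12, edgeR).

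In the other direction, MYH14 had 0.303, 0.42 and 0.621 CPM in HCCLM3 si-NC, against 75, 77.6 and 81 CPM in Huh7 si-NC, a log2 difference of -7.42 ± 0.11 (adjusted p = 2.51e-25, edgeR). MYL9 had 1.08, 1.36 and 1.77 CPM in HCCLM3 si-NC, against 11.4, 14.1 and 11.5 CPM in Huh7 si-NC, a difference of -3.13 ± 0.17 (adjusted p = 1.01e-14, edgeR). MYH14 was thus close to the limit of detection in HCCLM3, where 3 counts are worth about 0.1 CPM. FLNC and LCP1 differed by -3.03 ± 0.07 (adjusted p = 7.33e-19, edgeR) and -2.44 ± 0.08 (adjusted p = 8.75e-19, edgeR), with the per-library levels given above. GSN had 46.8, 42.8 and 17.1 CPM in HCCLM3 si-NC, against 173, 173 and 204 CPM in Huh7 si-NC, a difference of -2.37 ± 0.33 (adjusted p = 0.000125, edgeR) despite its spread. ACTB and ACTG1 were higher in HCCLM3 by 0.47 ± 0.03 and 0.93 ± 0.03 (adjusted p = 2.66e-12 and 2.11e-19, edgeR). Because the si-NC libraries of both lines also enter the knockdown comparisons, these values are set beside them without an overlap or a correlation.

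**Figure D5:**
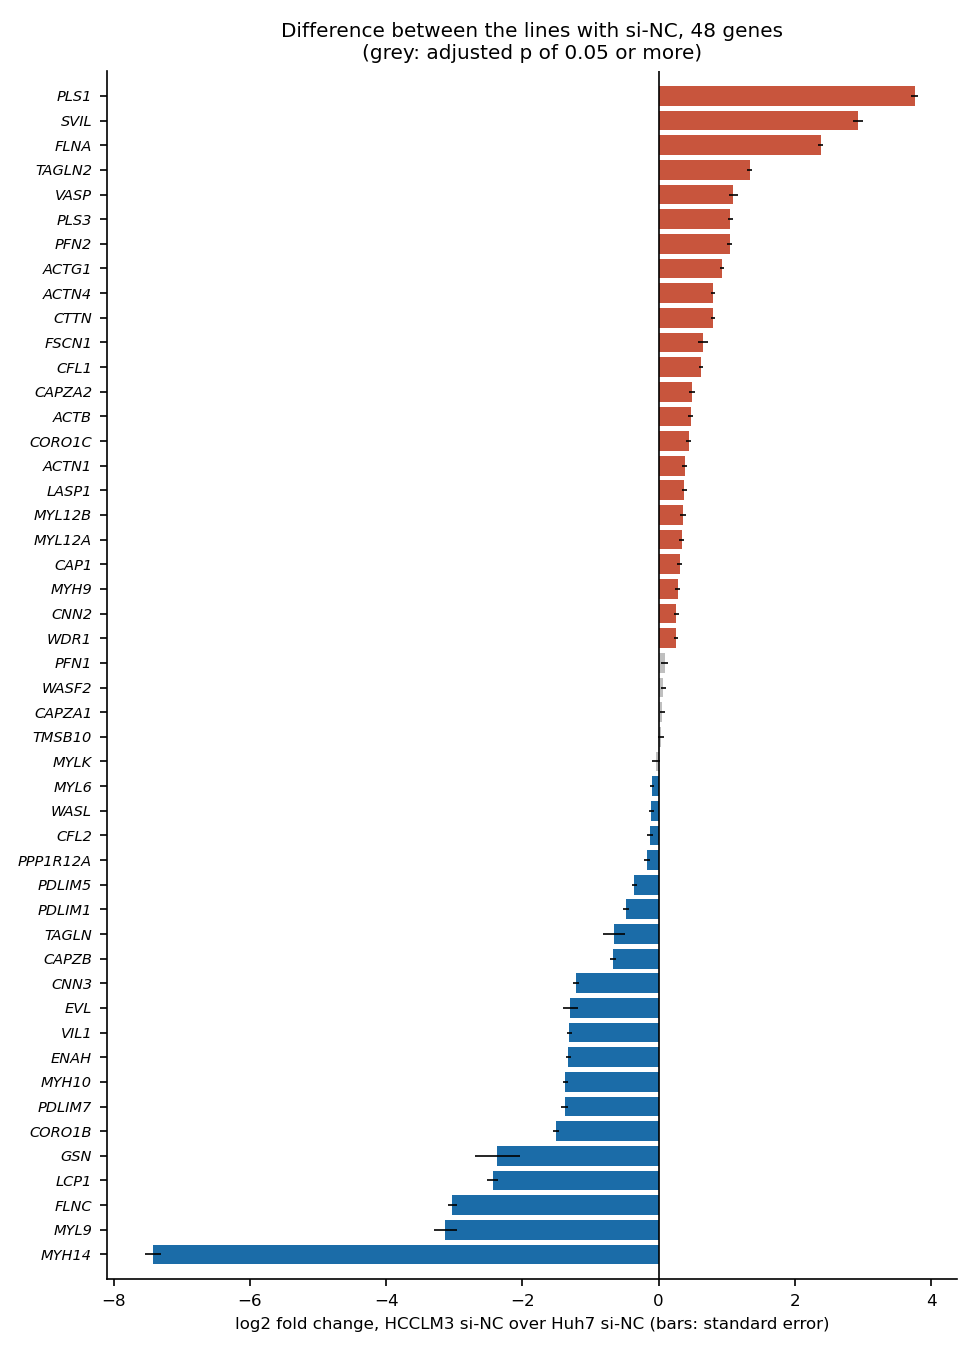
Log2 fold change of HCCLM3 si-NC over Huh7 si-NC for the 48 genes in order of size, with standard errors; red bars are higher in HCCLM3, blue bars lower, grey bars not past the test. PLS1, SVIL and FLNA stand at the top and MYH14, MYL9 and FLNC at the bottom.

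A list of 47 other actin-binding proteins and motors, none of them among the 48, had 44 tested genes. In Huh7 15 were higher, 7 were lower and 22 did not pass (median 0.06), and in HCCLM3 14 were higher, 10 were lower and 20 did not pass (median 0.05). The 22 called in Huh7 (50%) stand beside 31.4% of all features and 44.5% of those of at least 10 CPM, and the 24 called in HCCLM3 (54.5%) beside 30.6% and 42.3%. The smallest p in Huh7 belonged to the motor MYO9B at 0.53 ± 0.04, drebrin DBN1 at 0.38 ± 0.04, the cytokinesis scaffold ANLN at -0.35 ± 0.04 and MYO18A at 0.31 ± 0.05 (adjusted p between 9.08e-10 and 1.13e-05, edgeR). In HCCLM3 LIMA1, a filament-bundling LIM protein, had 283, 286 and 272 CPM in the si-circASH2 libraries, against 488, 485 and 462 CPM in the si-NC libraries, without overlap. It fell there by 0.77 ± 0.04 (adjusted p = 6.54e-13, edgeR). The membrane motors MYO6 and MYO1C had -0.47 ± 0.04 and -0.39 ± 0.04, and the gelsolin relative SCIN had 0.70 ± 0.07 (adjusted p between 1.1e-09 and 3.96e-08, edgeR).

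Many actin genes are known targets of serum response factor, which binds the CArG box, a run of A and T between CC and GG. The RefSeq promoter table (GRCh38.p14, 250 bases before to 50 after a listed start of the gene) held 40 of the 48 genes, and the motif, which reads alike on both strands in this form, was found in 6 of them (15%), against 1.29% of 35116 promoters and 1.6% of genes. ACTB, MYL9, PFN2, VIL1, FSCN1, TAGLN, CTTN and WASF2 were not among the 40. Since known targets of this factor are common among actin genes, the 15% is not independent of the choice of genes. The 60 bases around each match are shown, 5′ to 3′ on the gene's strand with the CArG box in capitals.
ACTN1: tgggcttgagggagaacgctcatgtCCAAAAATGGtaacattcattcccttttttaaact
SVIL: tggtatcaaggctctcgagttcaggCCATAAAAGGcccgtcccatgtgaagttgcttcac
MYLK: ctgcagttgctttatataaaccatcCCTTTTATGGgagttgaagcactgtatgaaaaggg
FLNA: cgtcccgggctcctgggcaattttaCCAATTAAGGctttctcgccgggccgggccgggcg
ACTG1: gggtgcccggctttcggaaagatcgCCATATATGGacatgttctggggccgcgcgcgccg
CNN2: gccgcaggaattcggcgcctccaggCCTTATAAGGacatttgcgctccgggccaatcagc
The windows lie at chr14:68977703-68977762 (ACTN1, minus strand), chr10:29634970-29635029 (SVIL, minus strand), chr3:123620608-123620667 (MYLK, minus strand), chrX:154374694-154374753 (FLNA, minus strand), chr17:81512859-81512918 (ACTG1, minus strand), chr19:1026494-1026553 (CNN2, plus strand), and the box of FLNA and CNN2 starts 94 and 89 bases before the gene's start. ACTN1, SVIL, MYLK and FLNA were called higher in Huh7, with log2 fold changes of 0.30 ± 0.04, 0.36 ± 0.09, 0.28 ± 0.06 and 0.19 ± 0.03, while ACTG1 and CNN2 did not pass there. In HCCLM3 MYLK alone of these was called higher, FLNA and CNN2 were called lower and the others did not pass. A match is a description of the letters in this window. The windows of ACTN1, SVIL, MYLK and ACTG1 lie inside the gene, downstream of its outermost start. MYLK spans 123610049 to 123884331 and SVIL 29457338 to 29736781, both on the minus strand, so their boxes stand at internal starts. The fold changes are per gene, and use of the start beside each box was not tested. GGAATG, the core bound by TEAD factors, was found on either strand in 10 of 40 genes (25%), against 14.0% of promoters and 16.7% of genes, namely FLNC, MYH9, MYH10, MYL12A, PLS1, ACTN1, MYLK, CNN3, PFN1 and PPP1R12A.

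Short 3′ untranslated region (UTR) sequences were also read, since an earlier search of these data had pointed to TTATACC and TATACCA, so that their occurrence here supports nothing by itself. In GENCODE 29 (GRCh38) TTATACC was found in the 3′ UTRs of 2 of the 48 genes (4.17%), against 7.91% of 19428 genes, and TATACCA in 4 (8.33%), against 8.81%. The sites in 3 of the 5 genes that were lower in both lines are shown, 5′ to 3′, with the 7 bases in capitals.
PFN2: tgaactcgctTTATACCtgaggaggtc
PDLIM5, first site: tctgaaataaTTATACCttctttcctt
PDLIM5, second site: aatcagaagaTTATACCccccaattgt
WASF2: tcatcgtgtgTATACCAcatttgtgcc
The 7 bases lie at chr3:149966187-149966193 on the minus strand for PFN2, at chr4:94664398-94664404 and chr4:94665561-94665567 on the plus strand for PDLIM5 and at chr1:27404332-27404338 on the minus strand for WASF2. ACTN4 and CAPZA1, the other 2 genes lower in both lines, held neither sequence in their 3′ UTRs. MYL6, ENAH and EVL also held TATACCA, with log2 fold changes in HCCLM3 of -0.09 ± 0.04, 0.25 ± 0.03 and 0.46 ± 0.11. There ENAH and EVL were called higher and MYL6 did not pass. In Huh7 their log2 fold changes were 0.20, 0.02 and 0.17, with MYL6 called higher and the others not past. The printed sites were chosen after the calls were known.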

How the data were processed

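Total RNA of 2 cell lines with either siRNA was sequenced in 12 libraries, 3 in each of 4 groups, from mRNA libraries. The authors deposited a table of raw counts and a table of FPKM (fragments per kilobase of transcript, scaled to library depth) for 23583 features with 1 column per library, per the file headers. Builds named in the submitters' processing notes are hg38, GRCm38 and mm10, with no role. No source used here names the aligner, the counter or a strand setting. In the deposited counts 1 occurs 1938 times, 2 occurs 6826 times and 3 occurs 4777 times, so the lowest counts are uncertain. Depth was 29006781 to 30858895 counts per library, at which 3 counts equal 0.0981 to 0.105 CPM. Libraries of a group differed by more than counting noise (chi-square per degree of freedom between 3.76 and 8.06), and none was merged.

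The 48 genes and the list of other actin-binding proteins were chosen with earlier results of these data known, so no p was adjusted over a list and no list or sum was tested. Counts were fitted with edgeR 4.0.16 in R 4.3.3 (TMM scaling, filterByExpr with a minimum count of 10, quasi-likelihood test with robust estimation, all 4 groups in one fit with 8 residual degrees of freedom), and p-values were adjusted by Benjamini-Hochberg over 16946 features in each of 4 comparisons. The common biological coefficient of variation was 5.65%. A standard error is the log2 fold change divided by the root of the F statistic. Levels are CPM on the scaled library sizes. Alternatives were RLE and upper quartile scaling, DESeq2 1.42.0, no filter, the groups compared fitted alone, the replicate number as a block, each library left out, and limma 3.58.1 on log2(FPKM + 1) or log2(FPKM + 0.1), with a minimum of 1 FPKM in 3 libraries or with all features above 0. Family shares used the deposited FPKM with an exact two-sided permutation test over 20 arrangements. The script was tested on simulated counts.

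Values in every library were given for up to 6 genes with the largest rise and up to 6 with the largest fall in each knockdown among those called without overlap, up to 6 with the smallest p for the difference of effects, up to 5 each way at baseline, and ACTB, ACTG1, MYH9, MYL9, CFL1 and PFN1. From the list of other actin-binding proteins up to 4 called genes with the smallest p were named per knockdown. Promoters came from RefSeq (GRCh38.p14, 250 bases before to 50 after the start) and 3′ UTRs and gene positions from GENCODE 29 (GRCh38). Of the 48 genes, 26 share exonic bases with a gene on the opposite strand and 16 have named pseudogene copies.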

Additional observations from a re-analysis of the deposited data

Results flagged for a closer look

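For 25 of the 48 genes the knockdown effect differed between the lines by a test of the difference itself in edgeR, given here as the log2 effect in HCCLM3 minus that in Huh7. It was positive for 3 genes, FLNC at 0.49 ± 0.09, ENAH at 0.23 ± 0.05 and CFL2 at 0.20 ± 0.06. Among crosslinking proteins it was negative for PLS1 at -0.88 ± 0.07, FLNA at -0.30 ± 0.05, ACTN1 at -0.24 ± 0.05 and PLS3 at -0.15 ± 0.05. In myosin II it was negative for MYH14 at -1.49 ± 0.38, MYL12A at -0.50 ± 0.05, MYL12B at -0.42 ± 0.06 and MYL6 at -0.29 ± 0.05.

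Among genes of monomer binding and turnover the difference was -0.42 ± 0.05 for CAP1, -0.26 ± 0.07 for TMSB10, -0.23 ± 0.06 for CORO1B, -0.20 ± 0.04 for WDR1 and -0.14 ± 0.05 for CORO1C. Among side-binding and LIM proteins it was -1.94 ± 0.24 for TAGLN, -0.49 ± 0.07 for PDLIM7, -0.37 ± 0.11 for SVIL, -0.20 ± 0.05 for PDLIM5 and -0.16 ± 0.05 for CNN2. For VASP it was -0.43 ± 0.09, for CTTN -0.22 ± 0.05, for VIL1 -0.16 ± 0.05 and for ACTB -0.14 ± 0.05. In 8 genes the effects had opposite signs and both were called, and TAGLN and PLS1 stood at the far end. The MYH14 difference rests on 2 to 19 counts per library in HCCLM3, where the gene passed the filter on low counts only through its level in Huh7.

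Of the 25 differences, 15 were called in all 20 alternative settings and 10 were lost in some. FLNC was lost in 2 of 3 limma fits on the deposited FPKM, both with log2(FPKM + 1) (adjusted p between 0.135 and 0.182). PDLIM5 was lost with limma on the deposited FPKM (adjusted p between 0.127 and 0.161) and MYH14 without HCCLM3 si-NC replicate 3 (adjusted p = 0.0626). SVIL was lost without Huh7 si-NC replicate 1 or Huh7 si-circASH2 replicate 2 (adjusted p between 0.0507 and 0.0597, each left out alone) and with limma on the deposited FPKM (adjusted p between 0.453 and 0.626). VIL1 was lost without Huh7 si-NC replicate 2, HCCLM3 si-NC replicate 3 or HCCLM3 si-circASH2 replicate 2 (adjusted p between 0.0752 and 0.115, each left out alone) and with limma on the deposited FPKM (adjusted p between 0.184 and 0.241). CFL2 was lost without Huh7 si-NC replicates 1 and 3, Huh7 si-circASH2 replicate 1, HCCLM3 si-NC replicates 1 and 2 or HCCLM3 si-circASH2 replicate 1 (adjusted p between 0.0519 and 0.0818, each left out alone) and in 2 of 3 limma fits on the deposited FPKM (adjusted p between 0.0512 and 0.0588). PLS3 was lost without Huh7 si-NC replicate 3, Huh7 si-circASH2 replicates 2 and 3, HCCLM3 si-NC replicates 1 and 2 or HCCLM3 si-circASH2 replicate 2 (adjusted p between 0.0525 and 0.0914, each left out alone), with limma on the deposited FPKM (adjusted p between 0.126 and 0.156) and with no filter on low counts (adjusted p = 0.0527). CORO1C was lost without Huh7 si-NC replicates 2 and 3, Huh7 si-circASH2 replicate 1, HCCLM3 si-NC replicates 1 and 2 or HCCLM3 si-circASH2 replicates 2 and 3 (adjusted p between 0.0775 and 0.104, each left out alone), with limma on the deposited FPKM (adjusted p between 0.132 and 0.15) and with no filter on low counts (adjusted p = 0.0728). CNN2 was lost without Huh7 si-NC replicates 1 and 2, Huh7 si-circASH2 replicate 1, HCCLM3 si-NC replicates 1, 2 and 3 or HCCLM3 si-circASH2 replicates 1 and 3 (adjusted p between 0.0536 and 0.0932, each left out alone), with limma on the deposited FPKM (adjusted p between 0.0825 and 0.0977) and with no filter on low counts (adjusted p = 0.0632). ACTB was lost without Huh7 si-NC replicates 1, 2 and 3, Huh7 si-circASH2 replicates 1 and 3, HCCLM3 si-NC replicates 1 and 2 or HCCLM3 si-circASH2 replicates 2 and 3 (adjusted p between 0.065 and 0.108, each left out alone), with limma on the deposited FPKM (adjusted p between 0.16 and 0.178) and with no filter on low counts (adjusted p = 0.0537).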

How the results depend on the processing

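The count of the 48 genes called was 27 to 34 in the Huh7 knockdown (32 as reported), 25 to 34 in the HCCLM3 knockdown (31), 16 to 26 for the difference of effects (25) and 42 to 44 at baseline (43) over the alternatives. Leaving out each library gave 27 to 33, 26 to 29, 20 to 24 and 42 to 43. With limma on log2(FPKM + 1) over all features above 0, 16 differences were called, 1 of them positive, and the cause was not tested. The count lower in Huh7 was 4 without Huh7 si-NC replicate 1 and 4 without Huh7 si-circASH2 replicate 1. No call reversed its direction under any of these alternatives. Of the calls, 23 of 32 in Huh7, 22 of 31 in HCCLM3, 15 of 25 differences and 40 of 43 at baseline were made in every setting. Fitted without Huh7, MYH14 did not pass the filter in HCCLM3. Other scalings moved the median of all features by at most 0.0205 on the log2 scale. Deviations of same-numbered libraries from their group means had correlations between -0.0566 and 0.111. So few libraries cannot settle whether the numbers mark a shared culture or batch. The replicate block gave 34, 33, 25 and 43 calls, and 21 calls in Huh7 and 25 in HCCLM3 in the list of other actin-binding proteins. Leaving out 1 of 3 libraries can never move a group's mean share by its SD, so it was no check on the family shares. With 3 libraries a group the spread limits small changes, and genes such as MYH14 in HCCLM3 rest on few reads.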

Other observations

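Beyond the 48 genes, 3 genes of the list of other actin-binding proteins and motors differed widely between the lines, and they were chosen after their values were seen. TMSB4X, or thymosin beta 4, which holds actin monomers like its relative TMSB10, had 378, 399 and 389.7 CPM in HCCLM3 si-NC, against 0.394, 0.768 and 0.59 CPM in Huh7 si-NC, a log2 difference of 9.37 ± 0.09 (adjusted p = 9.63e-27, edgeR). It was nearly absent from Huh7, while TMSB10 stood at 277, 297 and 299 CPM in HCCLM3 si-NC, against 277, 287 and 286 CPM in Huh7 si-NC, with overlapping libraries. CAPG, a capping protein of the gelsolin family, had 214, 195 and 199 CPM in HCCLM3 si-NC, against 21.8, 23.2 and 24.8 CPM in Huh7 si-NC, a difference of 3.12 ± 0.05 (adjusted p = 2.26e-24, edgeR). MYO1D, a membrane-linked single-headed motor, lay the other way, at 1.65, 1.22 and 1.67 CPM in HCCLM3 si-NC, against 47.4, 49.9 and 47.8 CPM in Huh7 si-NC, a difference of -4.99 ± 0.09 (adjusted p = 4.61e-24, edgeR).

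LIMA1, which fell in HCCLM3 with the knockdown, had 56.9, 62.9 and 60.8 CPM in the si-circASH2 libraries, against 58.8, 54.1 and 54.9 CPM in the si-NC libraries of Huh7, and its log2 fold change there was 0.11 ± 0.04 (adjusted p = 0.074, edgeR). SCIN had 67.2, 75.5 and 62.9 CPM in the si-circASH2 libraries, against 42.3, 40.5 and 43.8 CPM in the si-NC libraries of HCCLM3, with no overlap, and was at or below 1.08 CPM in Huh7.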
